A study of Mus musculus with 4 samples.

Results

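The 33 genes described here form the cell's answer to amino acid shortage together with the enzymes and transporters of serine, glycine, threonine, proline and folate metabolism. They were taken by symbol, for these roles. The files list all 33 among 23366 gene symbols, and 32 were kept by the filter on low counts, which left 13199 genes for testing. The member it removed was Slc7a11. RNA was sequenced from mouse R1 embryonic stem cells, a line of strain 129X1 x 129S1 grown on gelatin with serum, serum replacement and the cytokine LIF. In 2 knockdown libraries the cells carried a short hairpin RNA against Cyrano, a long noncoding RNA known for a near-perfect pairing site for miR-7. In 2 control libraries they carried a non-targeting hairpin in the same kind of vector, which bears a fluorescent and a puromycin marker in both groups. Carriers of the vector were enriched with puromycin or by flow cytometry, and RNA was isolated with either of a pair of column kits. The sources used here do not say which was used for which library.

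When amino acids run short, kinases phosphorylate the translation factor eIF2, most protein synthesis slows, and the message of the transcription factor ATF4 is translated more. ATF4 pairs with C/EBP proteins on composite DNA elements and switches on genes that make, import or spare amino acids. In serine synthesis PHGDH, PSAT1 and PSPH act in sequence, and SHMT enzymes then split serine into glycine and a one-carbon unit carried by folate. Mouse embryonic stem cells are known for a further route, in which TDH and GCAT break threonine down to glycine in mitochondria.

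The composite element is shown here because it ties several of these genes to ATF4 in the literature. Its core was searched as TGATGNAA on both strands, from 250 bases before to 50 bases after each RefSeq start (GRCm38.p6, whereas the counts were made on mm9). It was found in 8 of the 29 members with a promoter in that table, which is 27.6%, and in 4.51% of all 27025 genes with one. The stricter core TGATGCAA, a part of the first set of matches, was found in 5 of the 29, or 17.2%, and in 1.03% of all genes. Windows of 30 bases follow, 5′ to 3′ on the strand that reads the core, with the core in capitals.
Asns, chr6:7693214-7693243, minus strand: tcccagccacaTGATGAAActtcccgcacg
Atf3, chr1:191183425-191183454, plus strand: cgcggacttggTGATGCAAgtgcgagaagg
Chac1, chr2:119351038-119351067, minus strand: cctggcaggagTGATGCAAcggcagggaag
Trib3, chr2:152344028-152344057, plus strand: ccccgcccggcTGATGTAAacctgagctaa
Pck2, chr14:55540152-55540181, minus strand: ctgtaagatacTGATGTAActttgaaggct
Pycr1, chr11:120643833-120643862, minus strand: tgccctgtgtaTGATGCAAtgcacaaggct
Slc7a11 (nearer the start), chr3:50443642-50443671, plus strand: gggctgcatgaTGATGCAAattctccaggt
Slc7a11 (farther from it), chr3:50443661-50443690, minus strand: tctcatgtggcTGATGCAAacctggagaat
Vldlr, chr19:27216809-27216838, minus strand: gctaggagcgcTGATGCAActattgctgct
A match is a description of letters and not a shown binding site. Part of the members were taken as genes of the ATF4 response, so their higher share beside all genes is no test. The Trib3 core lies 15 to 22 bases after the start and the others lie before it, that of Asns at -23 to -16. The 100 bases before the Asns start (chr6:7693210-7693309, minus strand) give the longer context of its core.
Asns, bases before the start: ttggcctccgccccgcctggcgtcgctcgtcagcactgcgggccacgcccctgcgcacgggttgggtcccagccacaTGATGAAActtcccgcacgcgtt

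Counts over genes summed to 22321102 and 20761783 in knockdown libraries 1 and 2, and to 16854403 and 19138196 in control libraries 1 and 2. Cyrano, listed as 1700020I14Rik, had 89 and 68 reads in the knockdown libraries and 407 and 286 in the controls. The change on the log2 scale was -2.48 ± 0.30 (SE; adjusted p = 0.0070, quasi-likelihood test in edgeR), so the hairpin's target was lower as labelled. That call was lost without control library 1 (-2.08, adjusted p = 0.12) and without control library 2 (-2.79, adjusted p = 0.057). All 8 pluripotency markers were detected, with summed levels of 4140 and 4127 CPM (counts scaled to library size and composition) in the knockdown libraries and 4256 and 4503 CPM in the controls. At an unadjusted p under 0.05, 1 of them was higher (Dppa5a, log2 fold change 0.40) and 2 were lower (Nanog, -0.76, and Esrrb, -0.35), with 0 called. The 6 primitive endoderm markers summed to 158 and 194 CPM in the knockdown libraries against 98.0 and 116 CPM in the controls. At that p 4 of the 6 were higher, with 0 called. They were Gata4 (log2 fold change 0.94), Gata6 (0.79), Sox17 (0.85) and Pdgfra (1.10), whereas Dab2 (0.09) and Sox7 (0.27) did not pass. Over all genes 6.18% were higher and 5.43% lower at that p. The 6 trophectoderm markers summed to 34.5 and 44.7 CPM in knockdown and 34.4 and 34.4 CPM in control libraries. Of 7 fibroblast markers Col3a1, Dcn, Lum and Postn were at 0 in each library, and the list summed to 49.3 and 22.1 CPM in the knockdown libraries and 40.9 and 24.1 CPM in the controls, nearly all of it Thy1. The part of these markers in the results below was not tested, and in bulk RNA fewer cells of a type and less RNA per cell cannot be told apart.

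With all 4 libraries and group as the only term, no member was called after knockdown. Over all genes, 0.0379% were called higher and 0.0455% lower at an adjusted p under 0.05 (edgeR). DESeq2, which gave 29 members an adjusted p, also called 0 of them. Of the 9752 genes to which it gave one, it called 0.728% higher and 0.636% lower. By limma-voom 0 members were called too, beside 0.00758% higher and 0.0152% lower of 13199 genes. At an unadjusted p under 0.05 edgeR had 1 member higher, Asns, and 1 lower, Gpt2, where 6.18% of all genes were higher and 5.43% lower by that rule. The fold changes of several members moved with the library left out, as given below. On the log2 scale, 18 of the 32 tested members lay above 0, as did 49.8% of all genes, and 14 below. Past 1.5-fold there were 2 higher, Cebpb and Vldlr, and 1 lower, Pycr1, beside 6.99% and 7.52% of all genes. The median of the 32 was 0.01, beside -0.002 over all genes. It was 0.04 without knockdown library 1, -0.07 without knockdown library 2, -0.06 without control library 1 and 0.14 without control library 2. Over all genes those fits gave -0.006, -0.01, 0.005 and 0.01. Both knockdown libraries lay above both controls in 2 members (22.3% of all genes) and below both in 6 (21.3%). The smallest p that an exact permutation test can give for 1 gene, 2 libraries against 2, is 0.333.

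**Figure D1:**
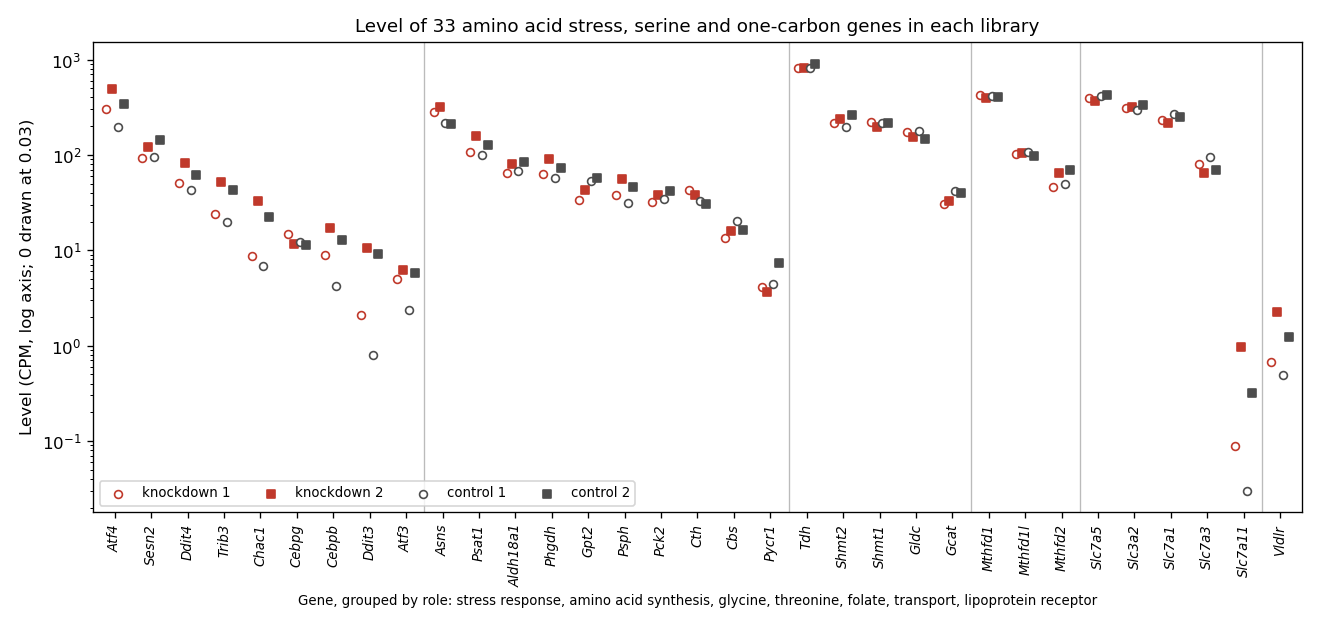
Level of each of the 33 genes in each library, in CPM on a log axis, with genes grouped by role and ordered by their mean in the controls. Knockdown libraries are red and controls grey, circles are library 1 and squares library 2. For Ddit3, Chac1 and Trib3 the squares of both groups lie well above the circles of both groups, whereas the 4 points of Tdh, Mthfd1 and Slc3a2 lie close together.

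Per kilobase of exon, the threonine dehydrogenase gene Tdh stood highest of the 33, with 438 and 430 CPM per kilobase in the knockdown libraries and 431 and 480 in the controls. Atf4 came next, at 174 and 287 CPM per kilobase in knockdown and 114 and 199 in control libraries. Its controls reached well above those of the third gene, Mthfd1 (133 and 121 CPM per kilobase in knockdown and 129 and 124 in control libraries), in 1 library and fell below them in the other, so the order of that pair is not fixed by these data. At the low end, Vldlr had 0.0809 and 0.274 CPM per kilobase in knockdown libraries and 0.0586 and 0.147 in controls.

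Over the 9 stress genes the median log2 fold change between the groups was 0.33, below the median log2 ratio between the libraries of 1 group, 0.72 in knockdown and 1.11 in control. Ddit3 encodes CHOP, a C/EBP-family factor of prolonged stress. It had 47 and 226 reads in knockdown libraries 1 and 2 and 13 and 173 in control libraries 1 and 2, or 2.10 and 10.5 CPM in knockdown and 0.791 and 9.16 CPM in control libraries. Library 2 was high and library 1 low in both groups, so the groups overlapped, and the log2 fold change of 0.32 ± 1.16 (SE; edgeR adjusted p = 0.95) had a 95% interval of -2.60 to 3.25. Chac1, whose enzyme breaks down glutathione, had 194 and 710 reads after knockdown and 112 and 424 in the controls. Its levels were 8.69 and 32.98 CPM in knockdown and 6.81 and 22.5 CPM in control libraries, again high in library 2 of each group. Trib3, a pseudokinase gene induced by ATF4 that dampens the response, had 24.2 and 52.5 CPM in the knockdown libraries against 19.6 and 42.9 CPM in the controls. The log2 difference between the groups, 0.29 ± 0.47 (SE; edgeR adjusted p = 0.86), was smaller than the 1.10 by which knockdown library 2 exceeded knockdown library 1 and the 1.11 between the controls.

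Atf4 itself had 6702 and 10668 reads in the knockdown libraries and 3229 and 6480 in the controls. These are 300.2 and 496 CPM in knockdown and 196 and 343 CPM in control libraries. The lower knockdown library lay below the higher control, and the log2 fold change of 0.56 ± 0.31 (SE) had an edgeR adjusted p of 0.54 and a 95% interval of -0.17 to 1.29. Without knockdown library 1 it was 0.87 and was called (adjusted p = 0.010). Without knockdown library 2 it was 0.16 (adjusted p = 0.97), without control library 1 it was 0.21 (0.90) and without control library 2 it was 1.02 (0.19). Chac1 had a log2 fold change of 0.50 ± 0.79 (SE; edgeR adjusted p = 0.86) with 4 libraries. It was 1.16 and called without knockdown library 1 (adjusted p = 0.041), -0.75 without knockdown library 2 (0.65), -0.11 without control library 1 (0.99) and 1.61 without control library 2 (0.31).

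The C/EBP partner gene Cebpb had 8.96 and 17.0 CPM in the knockdown libraries against 4.26 and 12.7 CPM in the controls, with a log2 fold change of 0.61 ± 0.50 (SE; edgeR adjusted p = 0.68). That value was 0.037 without control library 1 and 1.61 without control library 2. Atf3, an early stress factor gene, had 5.02 and 6.22 CPM in knockdown and 2.37 and 5.77 CPM in control libraries. In that gene control library 1 was the low one and the other 3 libraries lay together. Ddit4, which encodes the mTORC1 inhibitor REDD1, had 50.4 and 81.4 CPM in knockdown and 42.8 and 61.7 CPM in control libraries. Sesn2, which encodes a leucine sensor upstream of mTORC1, had 93.3 and 121 CPM in knockdown and 94.5 and 142 CPM in control libraries. Both again had the higher value in library 2 of each group. Cebpg, a dimer partner of ATF4, was the exception, with 14.9 and 11.6 CPM in knockdown libraries and 12.1 and 11.3 CPM in controls.

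Counted together, 8 of the 9 stress genes lay above 0 on the log2 scale, the median was 0.33, and the groups overlapped in all 9. The count above 0 moved with the library left out. Without knockdown library 2 only 4 of 9 were above 0 (median -0.05), and without control library 1 also 4 of 9 (-0.04). Without knockdown library 1 it was 8 of 9 (0.74) and without control library 2 it was 9 of 9 (1.02). Each of these fits leaves the library numbers unequal between the groups, and library 2 was above library 1 in both groups in 8 of the 9. The part of that imbalance in the sign was not tested. Between libraries of the same number, each stress gene but Sesn2 was higher in knockdown than in control, in library 1 and in library 2. Sesn2 was lower in both. Nothing says that a number marks a shared culture or day.

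**Figure D2:**
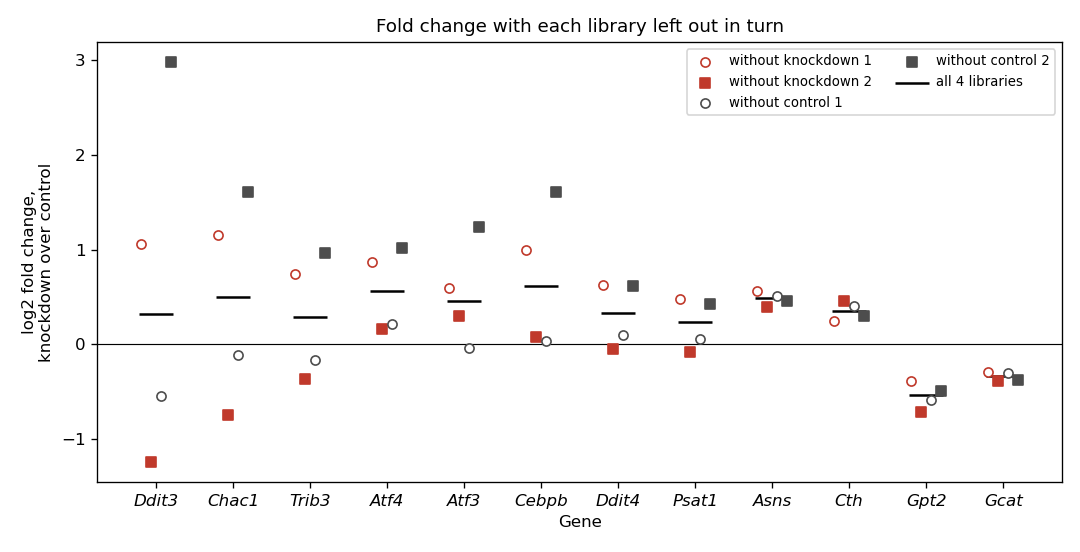
log2 fold change of 12 members, knockdown over control, with all 4 libraries (bar) and with each library left out in turn (points). Values for Ddit3 run from -1.24 to 2.98 and cross 0, as do those of Chac1 and Trib3, whereas those of Asns run from 0.40 to 0.57 and those of Gpt2 from -0.71 to -0.38.

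The difference between libraries is measured directly by the ratio of library 2 to library 1 within a group, as log2 of CPM plus 0.5. Among the 9 stress genes its median was 0.72 between the knockdown libraries and 1.11 between the controls, beside 0.004 and 0.01 over all genes. In 8 of the 9, library 2 was above library 1 in both groups, which 30.4% of all genes show. In 5 of them (Atf4, Ddit3, Trib3, Chac1 and Cebpb) and in Vldlr it was over 1.5-fold above in both, which 1.6% of all genes show. Ddit3 had the widest ratio among the members in both groups, 2.08 between knockdown libraries and 2.90 between controls. Of the fibroblast markers with reads, Thy1 went the other way in both groups, with 48.0 and 20.4 CPM in knockdown libraries 1 and 2 and 38.0 and 21.6 CPM in the controls. The others, on few reads, did not follow it in both groups. Their log2 ratios between knockdown libraries and between controls were 0.64 and -0.25 for Col1a1 and -0.53 and 0.32 for Col1a2. The part of these markers in the difference was not tested.

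**Figure D3:**
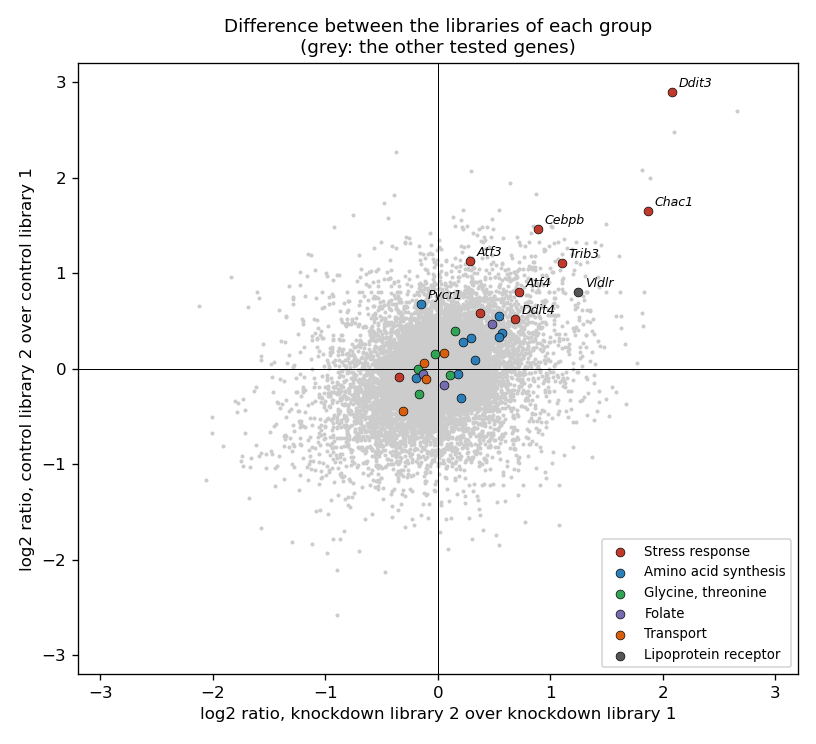
Each point is a tested gene, with the log2 ratio of knockdown library 2 over knockdown library 1 on the x axis and that of control library 2 over control library 1 on the y axis. Ddit3 (2.08 and 2.90), Chac1, Cebpb, Trib3 and Vldlr lie to the upper right of most of the grey cloud, while Cebpg, most glycine and transport genes and Mthfd1 stay near the origin.

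Serine synthesis enzymes followed the same libraries with smaller ratios. Phgdh, the first enzyme of the route, had 62.4 and 91.2 CPM in the knockdown libraries against 57.6 and 72.8 CPM in the controls. Psat1, the aminotransferase, had 107 and 159 CPM in knockdown and 98.7 and 128 CPM in control libraries. Psph, the phosphatase, had 37.9 and 55.6 CPM in knockdown and 30.96 and 45.5 CPM in control libraries. In each of the 3, library 2 was the higher one in both groups and the groups overlapped. Their log2 fold changes were 0.23 ± 0.20, 0.23 ± 0.20 and 0.29 ± 0.23 (SE), with edgeR adjusted p values of 0.68, 0.69 and 0.67.

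Asns, which encodes asparagine synthetase and is a classic ATF4 target, was the member with the lowest p. It had 6258 and 6850 reads in the knockdown libraries and 3584 and 3951 in the controls, or 280.3 and 318 CPM in knockdown and 218 and 209 CPM in control libraries. Both knockdown libraries lay above both controls. Its log2 ratio of library 2 to library 1 was 0.18 between the knockdown libraries and -0.059 between the controls. The log2 fold change of 0.49 ± 0.14 (SE) came with an unadjusted p of 0.0047 and an edgeR adjusted p of 0.21, and a 95% interval of 0.18 to 0.79. With each library left out in turn it ran from 0.40 to 0.57 and was never called. Cth, the cystathionine gamma-lyase gene that yields cysteine, was the other member with both knockdown libraries above both controls, at 43.1 and 37.7 CPM in knockdown and 32.7 and 30.5 CPM in control libraries (log2 fold change 0.36 ± 0.18 SE; edgeR adjusted p = 0.46).

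Gpt2, the mitochondrial alanine aminotransferase gene, stood lower after knockdown. It had 753 and 918 reads in the knockdown libraries and 881 and 1079 in the controls, or 33.7 and 42.6 CPM in knockdown and 53.6 and 57.1 CPM in control libraries. Both knockdown libraries lay below both controls. The log2 fold change of -0.54 ± 0.18 (SE) came with an unadjusted p of 0.0093, an edgeR adjusted p of 0.25 and a 95% interval of -0.92 to -0.16. Gpt2 and Asns thus lay on opposite sides of 0.

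Among the other synthesis genes, Pycr1, which encodes the last enzyme of proline synthesis, had 4.08 and 3.62 CPM in the knockdown libraries against 4.44 and 7.41 CPM in the controls. Control library 2 was the high one (log2 fold change -0.63 ± 0.36 SE; edgeR adjusted p = 0.52). Without it the log2 fold change was -0.21, and without control library 1 it was -0.95. Cbs, which encodes the enzyme of the step before Cth, had 13.6 and 15.7 CPM in knockdown and 20.4 and 16.4 CPM in control libraries, also without overlap. Aldh18a1, which encodes the enzyme that opens proline synthesis, had 65.1 and 80.0 CPM in knockdown and 67.0 and 83.7 CPM in control libraries. Pck2, the mitochondrial phosphoenolpyruvate carboxykinase gene, had 32.4 and 37.9 CPM in knockdown and 34.2 and 41.6 CPM in control libraries. In the last pair the groups overlapped and library 2 was the higher in both.

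**Figure D4:**
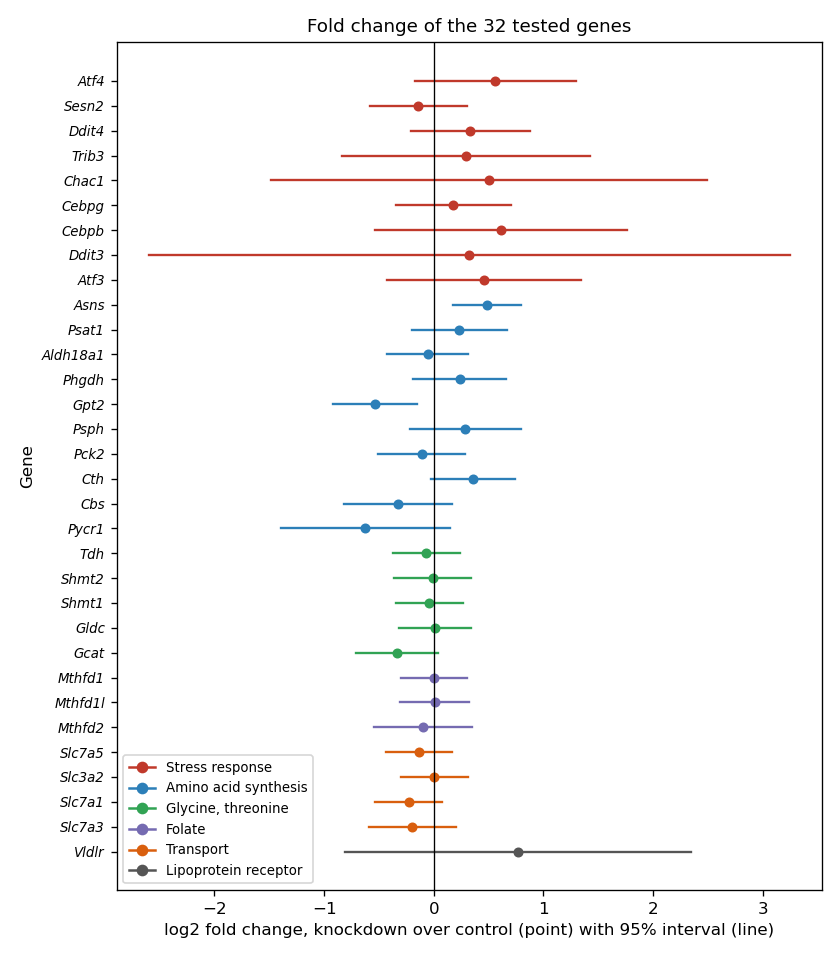
log2 fold change (point) and 95% interval (line) for the 32 tested members, knockdown over control, coloured by role. The intervals of Asns (0.18 to 0.79) and Gpt2 (-0.92 to -0.16) leave out 0, and that of Ddit3 is the widest, from -2.60 to 3.25.

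The 5 threonine and glycine genes had log2 fold changes between -0.34 and 0.01. Tdh had 824 and 809 CPM in the knockdown libraries and 812 and 903 CPM in the controls (log2 fold change -0.07 ± 0.14 SE; edgeR adjusted p = 0.89), with a 95% interval of -0.38 to 0.24. Gcat, whose enzyme takes the next step after TDH, had 30.8 and 33.2 CPM in the knockdown libraries, both below the 41.4 and 39.5 CPM of the controls (log2 fold change -0.34 ± 0.17 SE; edgeR adjusted p = 0.48). Gldc, the decarboxylase gene of the glycine cleavage system, had 172 and 153 CPM in knockdown and 176 and 146 CPM in control libraries. Shmt1, the cytosolic hydroxymethyltransferase gene, had 220.3 and 195 CPM in knockdown and 214 and 214 CPM in control libraries. Shmt2, its mitochondrial counterpart, had 215 and 239 CPM in knockdown and 198 and 261 CPM in control libraries. Of these 5 genes Gcat alone had groups that did not overlap.

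The 3 folate enzyme genes, which serve the transfer of the one-carbon unit, had log2 fold changes between -0.10 and 0.01. Mthfd1, the cytosolic enzyme gene, had 429 and 391 CPM in the knockdown libraries against 419 and 401 CPM in the controls (log2 fold change 0.001 ± 0.14 SE; edgeR adjusted p = 0.999), with a 95% interval of -0.30 to 0.31. Mthfd1l, its mitochondrial relative, had 101 and 105 CPM in knockdown and 108 and 96.5 CPM in control libraries. Mthfd2, the mitochondrial dehydrogenase gene induced by ATF4, had 46.4 and 64.9 CPM in knockdown and 50.01 and 69.2 CPM in control libraries, and so followed library 2 in both groups while its mitochondrial partner Mthfd1l did not.

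The 4 tested transporter genes had log2 fold changes between -0.23 and 0.003. Slc7a5 encodes LAT1, the light chain of a leucine transporter, and Slc3a2 encodes its heavy chain partner. Slc7a5 had 398 and 366 CPM in the knockdown libraries, below the 411 and 428 CPM of the controls (log2 fold change -0.14 ± 0.14 SE; edgeR adjusted p = 0.75), and Slc3a2 had 307 and 318 CPM in knockdown and 295 and 329.8 CPM in control libraries. Slc7a1, a transporter gene for arginine and lysine, had 229.9 and 213 CPM in knockdown and 269.8 and 249.5 CPM in control libraries, without overlap (log2 fold change -0.23 ± 0.14 SE; edgeR adjusted p = 0.56). Slc7a3, a relative for the same cationic amino acids, had 79.5 and 64.1 CPM in knockdown and 94.8 and 69.5 CPM in control libraries.

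Slc7a11, the cystine transporter gene with a pair of cores in its promoter, was at the edge of detection, with 2 and 21 reads in knockdown libraries 1 and 2 and 0 and 6 in control libraries 1 and 2. An observed 0 allows up to 3 reads, or 0.182 CPM, in that library, which covers counting error only. The gene did not pass the filter with all 4 libraries. With no filter its log2 fold change was 1.66 (edgeR adjusted p = 0.72), and with 1 library left out it ran from 0.73 to 6.43, without a test where knockdown library 2 was left out. Fitted values on so few reads are no bound. Without knockdown library 1 the log2 fold change of Slc7a11 was 2.50. In each group its reads lay mostly in library 2. Vldlr, a lipoprotein and reelin receptor gene that has been reported as an ATF4 target, had 15 and 49 reads in knockdown and 8 and 23 in control libraries (log2 fold change 0.77 ± 0.73 SE; edgeR adjusted p = 0.72). It too was high in library 2 of each group, and its log2 fold change was -0.35 without knockdown library 2 and 1.58 without control library 2.

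The other genes of these pathways were read from a list of 92 symbols in the files, of which 86 were tested. With all 4 libraries and group as the only term, none was called by edgeR, DESeq2 or limma-voom. By edgeR 9 were higher and 4 lower at an unadjusted p under 0.05, beside 6.18% and 5.43% of all genes. By group, 4 of 18 folate and methyl cycle genes were higher at that p, as was 1 of 12 proline, glutamate and alanine genes, and 0 of 17 transporter genes were in either direction. Of 8 genes of eIF2 phosphorylation 1 was higher and 2 were lower. Of 14 further ATF4 axis and stress genes 2 were higher and 1 was lower. In the rest, 0 of 7 serine and glycine genes passed, 1 of 6 glutathione genes was lower and 1 of 4 genes beside Vldlr was higher. The lowest p belonged to Lrpap1, a chaperone gene of the lipoprotein receptors, with 150.1 and 165 CPM in the knockdown libraries against 105 and 117 CPM in the controls (log2 fold change 0.50 ± 0.14 SE; edgeR adjusted p = 0.20). Glud1, which encodes glutamate dehydrogenase, had 739 and 808 CPM in knockdown and 546 and 566 CPM in control libraries (log2 fold change 0.48 ± 0.14 SE; edgeR adjusted p = 0.21). The 3 methyl and folate cycle genes came next with edgeR adjusted p values of 0.23 to 0.24, namely Bhmt (1.26 ± 0.39), Mthfd2l (1.23 ± 0.38) and Mat2b (0.49 ± 0.16), as log2 fold change and SE. Over the 86 tested genes of the list, both knockdown libraries lay above both controls in 15 and below both in 17, beside 22.3% and 21.3% of all genes.

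Among 14 further stress genes of the ATF4 axis, 11 had library 2 above library 1 in both groups and 5 were over 1.5-fold above in both, beside 30.4% and 1.6% of all genes. These 5, named after their values were seen, were Atf5, Nupr1, Stc2, Gdf15 and Herpud1. Stc2, a secreted glycoprotein gene, had 4.75 and 13.3 CPM in the knockdown libraries and 3.47 and 9.48 CPM in the controls. Herpud1, an endoplasmic reticulum stress gene, had 15.6 and 32.5 CPM in knockdown and 13.3 and 33.9 CPM in control libraries. Elsewhere in the wider list Slc1a4 and Slc6a9, transporter genes for neutral amino acids and for glycine, showed the same 1.5-fold ratio.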

How the data were processed

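Polyadenylated RNA of 2 knockdown and 2 control libraries was read as raw counts per gene symbol, 1 file per library, deposited by the authors without normalization. Per the submitters' processing notes, alignment and counting involved TopHat, HTSeq, bedtools and SAMtools on build mm9. Not given in the sources used here: strand setting, annotation and versions. Overlapping and antisense genes can therefore not be set apart, and members with near-identical pseudogenes lose reads that do not align uniquely. The 5 tallies per file that name no gene were left out. As a percent of tallied reads in knockdown 1, knockdown 2, control 1 and control 2, reads outside genes made up 6.75, 6.39, 7.61 and 6.43, ambiguous reads 0.568, 0.600, 0.459 and 0.513, and multiply aligned reads 28.7, 26.1, 32.8 and 30.2.

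Groups and replicate numbers came from the sample titles. The submitters call the libraries biological replicates, and nothing says how cultures were separated, so p-values reflect only how far these libraries vary. Replicates differed beyond sampling noise (chi-square over its degrees of freedom 20.5 between knockdown and 25.4 between control libraries).

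The main test was that of edgeR 4.0.16 (R 4.3.3): filterByExpr (minimum count 10), TMM factors, glmQLFit with robust estimation and glmQLFTest, two-sided, group as the only term, Benjamini-Hochberg adjustment over 13199 genes, threshold 0.05. Standard errors divide the size of the log2 fold change by the root of F. DESeq2 1.42.0, limma-voom (limma 3.58.1), other factors, no filter, each library left out in turn, a replicate block and leaving out Rn45s were alternatives. Exon lengths are merged exons of GENCODE M21, found for 33 of 33 members by symbol, and promoters are RefSeq's on GRCm38.p6.

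The members and lists were chosen with earlier results of these data known. All members are named, those with a p under 0.05, past 1.5-fold or highest per length in full, and of the wider list the 5 with the lowest p.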

Additional observations from a re-analysis of the deposited data

Results flagged for a closer look

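Reads that HTSeq could not place because they overlapped more than 1 gene lie outside the gene counts used above. They made up 0.584% of tallied reads on average in the knockdown libraries (0.568% and 0.600%) and 0.486% in the controls (0.459% and 0.513%), so both knockdown libraries lay above both controls. Such reads are lost to the genes they overlap, and their part in the values of the members was not tested.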

How the results depend on the processing

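Reads were few for Slc7a11 and Vldlr, so depth limits what can be said of them. Of the members, 22 changed sign with a library left out, and the causes were not tested. The ranges of the log2 fold change over left-out libraries were, for the stress genes, Atf3 -0.040 to 1.24, Ddit3 -1.24 to 2.98, Ddit4 -0.047 to 0.63, Trib3 -0.37 to 0.97, Chac1 -0.75 to 1.61, Cebpg -0.020 to 0.35 and Sesn2 -0.41 to 0.18. For synthesis genes they were Psat1 -0.076 to 0.48, Psph -0.0077 to 0.59, Phgdh -0.060 to 0.48, Aldh18a1 -0.21 to 0.11 and Pck2 -0.25 to 0.035. For the others they were Shmt1 -0.14 to 0.048, Shmt2 -0.20 to 0.20, Mthfd1 -0.074 to 0.071, Mthfd1l -0.076 to 0.093, Mthfd2 -0.36 to 0.15, Slc7a3 -0.40 to 0.046, Slc3a2 -0.078 to 0.084, Tdh -0.15 to 0.0072, Gldc -0.12 to 0.15 and Vldlr -0.35 to 1.58. The other 10 tested members kept their sign.

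Values near 0 also changed sign with the scaling. With library size only, Shmt1 was 0.011, Shmt2 0.043 and Aldh18a1 0.00076. With RLE factors Mthfd1 was -0.0024 and Slc3a2 -0.0011, by DESeq2 -0.0030 and -0.0017, and without Rn45s -0.0045 and -0.0030. With upper-quartile factors Mthfd1 was -0.019, Slc3a2 -0.018, Mthfd1l -0.012 and Gldc -0.0093.

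The count of members called, 0 higher and 0 lower, ran over left-out libraries from 0 to 2 higher and stayed at 0 lower. Members higher at an unadjusted p under 0.05 numbered 1, 2 with library size only and by limma-voom, 3 with no filter, and 0 to 10 with a library left out. Those lower numbered 1, and 0 to 2 with a library left out. The 13 wider pathway genes at that p were 5 to 19 with a library left out. Each fit with a library left out has 1 library in a group, so its counts cannot be weighed against all genes. Over all genes, calls were 5 higher and 6 lower, 2 and 4 by RLE scaling. DESeq2 gave 71 and 62, limma-voom 1 and 2, edgeR unfiltered 174 and 158, edgeR unscaled for composition 32 and 18, upper-quartile factors 10 and 16, the fit without robust estimation 1 and 3, and the fits with a library left out 0 to 60 and 0 to 131. By unadjusted p under 0.05, edgeR had 816 genes higher and 717 lower, against 1122 and 554 with library size only, where the median of all genes was 0.05. By that rule limma-voom had 807 higher and 733 lower of 13199 genes, and edgeR unfiltered had 1003 and 955 of 17005. Cyrano was -2.42 by limma-voom (adjusted p = 0.051) and ran from -2.79 to -2.08 with a library left out. With the stricter promoter core TGATGCAA the count of members was 5 in place of 8.

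The replicate numbers are shared by the groups in the titles only, and nothing says that they mark a shared culture or day. Deviations of same-numbered libraries correlated at 0.29 over 13199 genes and at 0.87 over the 32 members (across genes, which are not independent). With a replicate block edgeR called 3 members higher, Atf4 (0.57, adjusted p = 0.00093), Asns (0.48, 0.0076) and Cebpb (0.72, 0.038), and 1 lower, Gpt2 (-0.54, 0.014). Of the 9 stress genes 8 lay above 0 with the block, and their median was 0.47. Under that block 6 of 32 members were higher and 2 lower at an unadjusted p under 0.05, beside 1366 and 1313 of 13199 genes. In either direction 23 wider pathway genes passed that p, of 86 tested, and 11 of the 86 were called. Of all 13199 genes, 504 were called higher and 451 lower.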
